A study of Drosophila melanogaster with 3 samples.

Results

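The genes described here are the cuticle protein genes of Drosophila melanogaster, examined for Sox14 occupancy at the start of metamorphosis. They are the protein-coding genes of Ensembl release 115 whose symbol starts with Cpr or Edg followed by a number, with Lcp or with Twdl, together with Pcp and Acp65Aa. The rule gave 115 of 13945 protein-coding genes: 70 Cpr, 15 Lcp, 25 Twdl and 3 Edg genes, and the pair Pcp and Acp65Aa. Another 3 genes with such symbols are annotated as pseudogenes and were left out.

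Insect cuticle is a laminate of chitin fibres and structural proteins that the epidermis secretes afresh for each stage. Most Cpr and Lcp proteins carry the Rebers and Riddiford chitin-binding region, Twdl (Tweedle) proteins form an unrelated family that shapes the body, and the Edg genes were first isolated as ecdysone-dependent transcripts. In the white prepupa the ecdysone pulse has just ended larval life, the larval cuticle is hardening into the puparium, and the pupal cuticle has yet to be laid down. Sox14 is an HMG-box factor induced by ecdysone at this time.

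The study profiled 1 group of whole white prepupae, of pooled sexes and unstated age, from a transgenic line that stably expresses Sox14 with GFP fused to its C terminus. ChIP was done with an antibody against GFP on sheared DNA with fragments of 200 to 800 bp, in 3 biological replicates of 1 library each. The labels name a possible control, which is not analysed here, and the files give no read depth, so depth is unknown. Because whole animals were used, each value averages epidermis with all other tissues, and binding in a few cells cannot be told apart from weak binding in many.

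The authors deposited an optimal list of 9316 peaks that pass their reproducibility threshold, a relaxed list of 30000 peaks from the pooled replicates, and a relaxed list from each replicate. The relaxed lists hold background by design, as input to the reproducibility procedure. A gene was counted when a peak summit lay within 1 kb or 5 kb of any of its transcription start sites. Signal is the peak score the authors deposited, whose scale differs between lists, so replicates are set side by side by rank, with rank 1 the strongest peak of a list.

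Optimal summits with a cuticle gene as the nearest protein-coding gene were AT-rich. Of these 10, 6 are shown as examples of binding with no other protein-coding gene's start nearer. Each window holds the summit base and 50 bases on either side, in dm6 coordinates on the plus strand, read from the RefSeq Release 6 genome. Capitals mark AACAAT or its reverse complement ATTGTT, the core that Sox HMG domains are known to prefer. It occurred in the window beside Cpr62Ba and in none of the other 5 shown.
Cpr72Eb upstream summit (chr3L:16364318-16364418, plus strand): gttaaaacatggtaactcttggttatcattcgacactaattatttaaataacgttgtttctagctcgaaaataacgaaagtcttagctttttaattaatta
Cpr72Ea upstream summit (chr3L:16361307-16361407, plus strand): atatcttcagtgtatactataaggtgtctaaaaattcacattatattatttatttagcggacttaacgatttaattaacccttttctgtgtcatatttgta
Cpr62Ba intronic summit (chr3L:1829681-1829781, plus strand): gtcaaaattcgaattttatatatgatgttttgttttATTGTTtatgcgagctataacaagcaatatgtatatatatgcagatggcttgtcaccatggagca
Cpr12A upstream summit (chrX:13541324-13541424, plus strand): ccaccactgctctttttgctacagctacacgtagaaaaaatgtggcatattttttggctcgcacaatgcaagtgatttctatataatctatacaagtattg
Cpr73D intronic summit (chr3L:16941361-16941461, plus strand): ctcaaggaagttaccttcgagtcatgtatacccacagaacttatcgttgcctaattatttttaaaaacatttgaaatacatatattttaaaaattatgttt
Cpr100A upstream summit (chr3R:30864597-30864697, plus strand): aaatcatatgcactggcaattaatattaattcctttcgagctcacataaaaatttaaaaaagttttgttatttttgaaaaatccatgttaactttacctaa

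The promoters of Cpr72Eb and Cpr62Ba, of Edg84A and Pcp, and of TwdlT, the Twdl gene nearest to a pooled relaxed summit, are shown for the other sequence feature that recurred, a TATA box. Each runs from 250 bases before to 50 bases after the start of the canonical transcript, on the gene's strand. Capitals mark TATAAA and, in Edg84A, the reverse complement of CAAGGTCA, the site known for the nuclear receptor FTZ-F1. Edg84A was the only 1 of the 115 members with that site in this window. Cpr62Ba is shown as a member without TATAAA.
Cpr72Eb promoter (chr3L:16364649-16364948, plus strand): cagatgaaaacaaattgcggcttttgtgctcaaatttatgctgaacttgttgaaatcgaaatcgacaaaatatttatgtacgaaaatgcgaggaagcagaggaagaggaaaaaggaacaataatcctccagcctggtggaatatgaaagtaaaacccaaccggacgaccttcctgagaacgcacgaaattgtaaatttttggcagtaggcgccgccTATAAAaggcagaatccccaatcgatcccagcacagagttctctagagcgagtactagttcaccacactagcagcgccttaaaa
Cpr62Ba promoter (chr3L:1828893-1829192, minus strand): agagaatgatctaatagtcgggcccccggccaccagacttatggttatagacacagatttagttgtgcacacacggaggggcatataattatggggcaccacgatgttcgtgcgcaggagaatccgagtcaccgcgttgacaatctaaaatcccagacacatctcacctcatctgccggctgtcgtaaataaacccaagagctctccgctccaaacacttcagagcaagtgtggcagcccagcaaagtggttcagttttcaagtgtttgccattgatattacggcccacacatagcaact
Edg84A promoter (chr3R:6684195-6684494, plus strand): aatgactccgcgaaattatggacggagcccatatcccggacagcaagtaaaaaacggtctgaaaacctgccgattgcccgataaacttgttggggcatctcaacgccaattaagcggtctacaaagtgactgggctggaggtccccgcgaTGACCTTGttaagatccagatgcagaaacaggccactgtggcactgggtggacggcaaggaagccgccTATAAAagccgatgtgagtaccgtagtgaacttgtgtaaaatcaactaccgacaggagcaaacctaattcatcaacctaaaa
Pcp promoter (chr2L:7021432-7021731, plus strand): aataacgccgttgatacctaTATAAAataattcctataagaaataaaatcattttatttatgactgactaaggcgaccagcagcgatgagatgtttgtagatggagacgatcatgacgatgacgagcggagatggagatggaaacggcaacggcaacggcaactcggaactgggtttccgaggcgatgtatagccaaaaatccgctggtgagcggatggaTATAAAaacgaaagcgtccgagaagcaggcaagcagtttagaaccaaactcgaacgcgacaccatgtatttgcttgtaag
TwdlT promoter (chr3R:27048970-27049269, plus strand): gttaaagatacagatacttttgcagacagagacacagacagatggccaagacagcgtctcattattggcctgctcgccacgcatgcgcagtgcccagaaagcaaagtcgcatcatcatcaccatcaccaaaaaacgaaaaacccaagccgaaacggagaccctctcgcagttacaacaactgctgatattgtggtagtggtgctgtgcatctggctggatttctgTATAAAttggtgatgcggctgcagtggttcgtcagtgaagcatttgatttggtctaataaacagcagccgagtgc

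Few cuticle genes had an optimal Sox14 summit at their own start. Within 1 kb, 4 of 115 members had an optimal summit (3.48%, 95% Wilson interval 1.36 to 8.6), against 33.5% of all protein-coding genes. Within 5 kb the count was 25 members (21.7%, 15.2 to 30.1), against 55% of all protein-coding genes. The intervals cover counting error over genes only, and neighbouring genes share summits. The median distance from a start to the nearest optimal summit was 15466 bp for members and 3927 bp for all protein-coding genes.

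The relaxed lists gave the same order. In the pooled relaxed list 18 members had a summit within 1 kb (15.7%) against 50.9% of all protein-coding genes, and 58 had one within 5 kb (50.4%) against 73.6%. Genes with a relaxed summit in each of the 3 replicates were also counted, whether or not it was the same peak. Within 1 kb these were 8 members (6.96%) against 44.5% of all protein-coding genes, and within 5 kb 52 (45.2%) against 68.9%. In the single replicates 21, 19 and 18 members had a relaxed summit within 1 kb, or 16.8 ± 1.33% (SD, n = 3), against 54.4 ± 0.707% of all protein-coding genes. The gap between members and all genes was thus larger than the spread between replicates, and the same held when each replicate was limited to its 9316 strongest peaks, with 3.19 ± 0.502% of members and 34.8 ± 1.25% of all protein-coding genes (SD, n = 3).

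**Figure D1:**
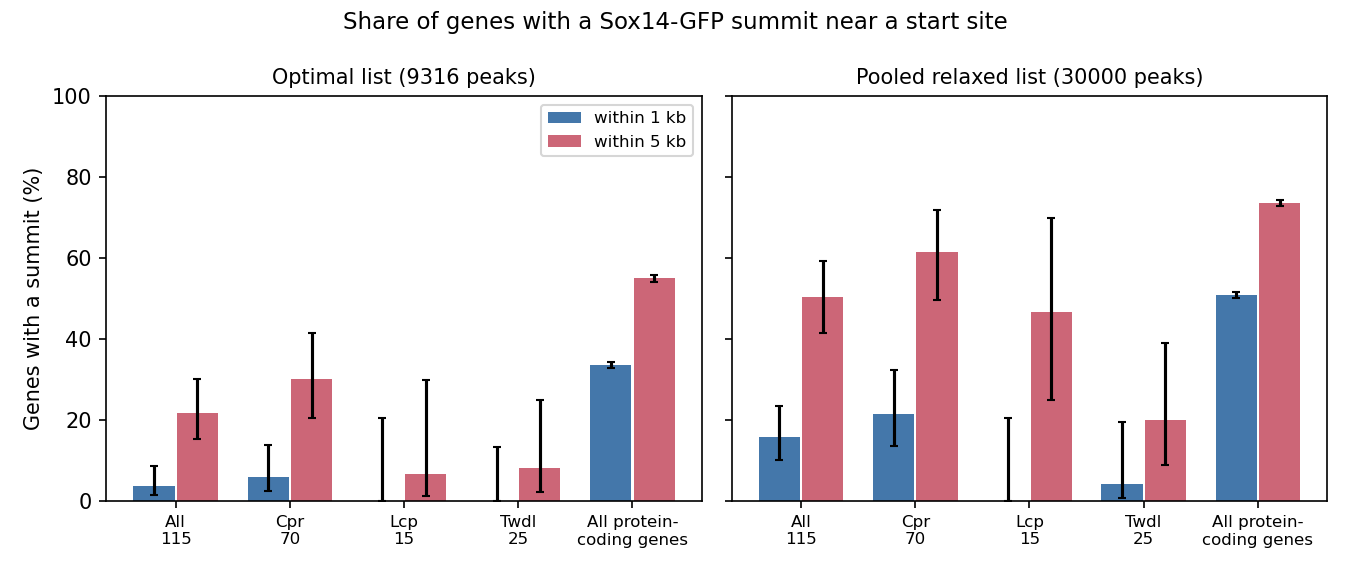
Share of genes with a summit within 1 kb (blue) or 5 kb (red) of a start, in percent with 95% Wilson intervals, for all 115 members, the Cpr, Lcp and Twdl genes, and all protein-coding genes. No Lcp or Twdl gene had an optimal summit within 1 kb, and Twdl genes had the lowest share at 5 kb in the pooled relaxed list, with 5 of 25.

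Gene structure and mappability differed between members and other genes. Members were short, with a median gene length of 983 bp against 2166 bp for all protein-coding genes, and 90.4% of members against 73.5% of all protein-coding genes had a single start. Among single-start genes, 3 of 104 members (2.88%) had an optimal summit within 1 kb, against 2692 of 10246 protein-coding genes (26.3%). Repeated sequence, where reads cannot be placed with certainty, was measured as the share of 31-base words within 1 kb of the start that recur in the genome. It exceeded 10% for 13 members (11.3%) and for 4.94% of all protein-coding genes. The highest shares were at the near-identical pairs Lcp65Ab1 and Lcp65Ab2, with 73.7% and 72.7%, and Cpr65Ax1 and Cpr65Ax2, with 64.9% and 64%, so a missing summit is uncertain there. Without the genes above 10%, 4 of 102 members (3.92%) and 34.7% of protein-coding genes had an optimal summit within 1 kb.

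The counts were uneven between subfamilies, and so was repeated sequence. Of the 13 members with more than 10% repeated words, all but Cpr65Ax1 and Cpr65Ax2 were Lcp or Twdl genes. The subfamily counts were not repeated without these 13 genes, so a missing summit is less certain at them. All 4 members with an optimal summit within 1 kb were Cpr genes, and Cpr genes made up 21 of the 25 with one within 5 kb, or 30% of the 70 Cpr genes. In the pooled relaxed list 43 Cpr genes (61.4%) had a summit within 5 kb, as did 7 of 15 Lcp genes, 5 of 25 Twdl genes, 1 of 3 Edg genes, and both Pcp and Acp65Aa. The median distance to the nearest optimal summit was 8318 bp for Cpr, 6996 bp for Edg, 30683 bp for Twdl and 36166 bp for Lcp genes. Neighbouring genes share summits, so the Lcp and Twdl medians describe few loci. Of the 15 Lcp genes, 10 lie at 65A and 4 in the array from Lcp1 to Lcp4. Of the 25 Twdl genes, 12 lie in 1 array and share their nearest optimal summit.

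A further contrast lay within the Cpr genes. A published signature of the chitin-binding region was searched in the translated proteins and matched 70 of 115 members: 53 of 70 Cpr, 13 of 15 Lcp, 2 of 3 Edg and none of 25 Twdl proteins, and both Pcp and Acp65Aa. Of the 17 Cpr genes whose protein lacks a match, 13 (76.5%, 52.7 to 90.4) had an optimal summit within 5 kb, against 8 of the 53 with a match (15.1%, 7.85 to 27.1). The share over all protein-coding genes within 5 kb was 55%. The intervals are no test here, since neighbouring genes such as Cpr97Ea and Cpr97Eb share a summit. Within 1 kb, 2 of 17 without a match (11.8%, 3.29 to 34.3) and 2 of 53 with one (3.77%, 1.04 to 12.8) had an optimal summit. The share over all protein-coding genes within 1 kb was 33.5%. The median distance to the nearest optimal summit was 2269 bp for Cpr genes without a match and 13002 bp for those with one. Counting a summit only for its nearest protein-coding gene, 8 of 17 Cpr genes without a match (47.1%, 26.2 to 69) and 2 of 53 with one (3.77%, 1.04 to 12.8) had a summit within 5 kb, against 30.4% of all protein-coding genes.

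Inside gene clusters, 6 of 7 Cpr genes without a match and 6 of 38 with one had an optimal summit within 5 kb. Outside them, 7 of 10 without a match and 2 of 15 with one did. These are parts of the same split and no check of it. The genes without a match were longer, with a median of 1664 bp against 941 bp. The part that gene length plays was not tested. This split is a description with no test, for 2 reasons. It was noticed after the summits had been counted, among 5 features by which members were divided. The signature also replaced a first pattern, which was wrongly spaced and matched only 7 proteins, all of them Cpr. Under that first pattern 20 of 63 Cpr genes without a match (31.7%) and 1 of 7 with one (14.3%) had an optimal summit within 5 kb, but the other measures did not follow. The median distance to the nearest optimal summit was 8555 bp without a match and 6890 bp with one, and the shares without and with a match were 4.76% and 14.3% for an optimal summit within 1 kb and 60.3% and 71.4% for a pooled relaxed one within 5 kb. Counting only the nearest gene, both shares were 14.3%. The contrast was thus seen with the signature and not with the first pattern. All 7 proteins with the first pattern also match the signature, and most Cpr proteins without the first pattern match it too. The first pattern therefore cannot check the split, and no other pattern was tried. A protein without a match may still hold a diverged form of the region.

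**Figure D2:**
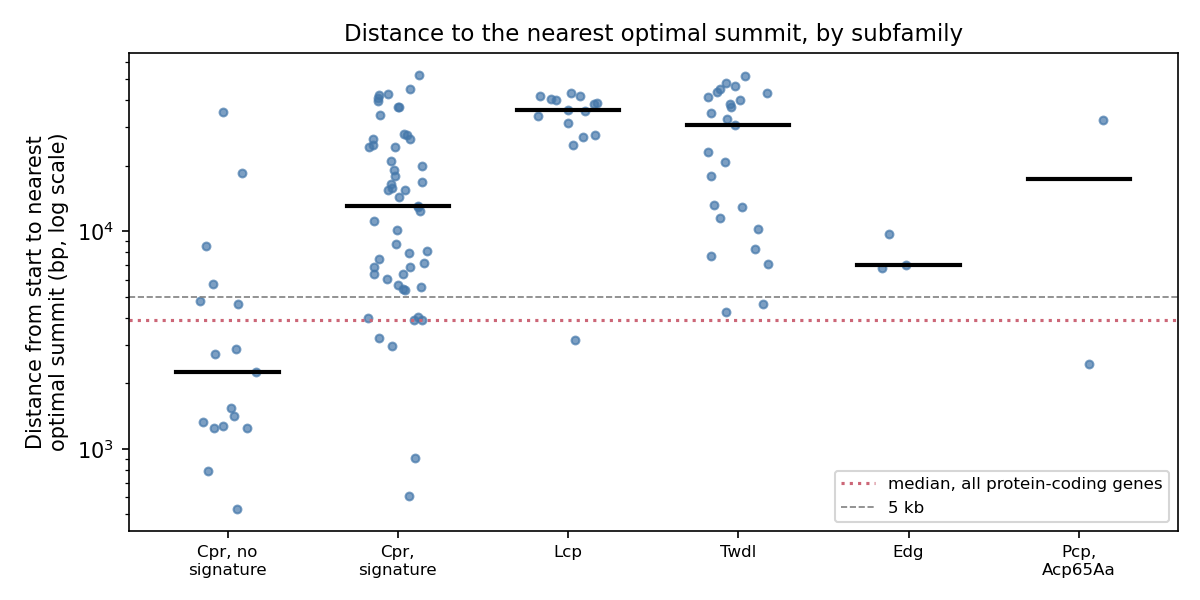
Distance in bp, on a log axis, from each member's start to the nearest optimal summit, with Cpr genes divided by a match to the chitin-binding signature. Black bars are group medians, which are 2269 bp for Cpr genes without a match and 13002 bp for those with one, and the dotted line is the median of all protein-coding genes, 3927 bp.

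The Cpr genes without a match that had an optimal summit within 5 kb were Cpr72Eb, Cpr62Ba, Cpr47Eg, Cpr72Ea, Cpr97Eb, Cpr49Ac, Cpr51A, Cpr73D, Cpr12A, Cpr47Ed, Cpr100A, Cpr97Ea and Cpr67B. The other 4 were Cpr30F, Cpr78Cb, Cpr57A and Cpr92F, whose nearest optimal summits lay 5713, 8555, 18603 and 35388 bp away. Cpr67B at 4779 bp lay just inside the 5 kb window and Cpr30F just outside it. The 8 with a match were Cpr49Ah, Cpr47Ec, Cpr72Ec, Cpr31A, Cpr67Fb, Cpr47Eb, Cpr78Cc and Cpr66Cb, the nearest of them at 607 bp.

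In all, 24 optimal summits lay within 5 kb of a member. Among protein-coding genes, the only ones compared, another gene's start was nearer than the member's for 14 of them, and a member's was nearest for 10. Of the 24, 23 had a summit within 100 bp in all 3 replicate lists. Optimal peaks had passed the authors' reproducibility threshold, so such matches are largely built in. The share over all 9316 optimal peaks was not computed. By annotation 13 were intergenic, 7 intronic and 4 exonic.

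The strongest of these summits stood at neighbouring genes. The summit of rank 93, with signal 1194, lay 3996 bp from Cpr78Cc but 82 bp from a start of CG11309. It ranked 96, 100 and 89 in replicates 1, 2 and 3. The summit of rank 145, with signal 1006, lay 3230 bp from Cpr31A but 543 bp from a start of Pen, an importin alpha, and that of rank 445 lay 4025 bp from Cpr66Cb but 88 bp from a start of CG7083. The 3 strongest summits in reach of a member were thus each nearer to another gene.

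Pcp, a pupal cuticle protein gene nested within the purine synthesis gene Gart, fits the same description. Its nearest optimal summit lay 2466 bp downstream of its start, and 250 bp from a start of Gart. Its signal was 390 and its ranks in the replicates were 1002, 1399 and 1377. The summit within reach of Lcp9, 3161 bp upstream, lay 34 bp from a start of CG3589, and was the only optimal summit within 5 kb of any of the 15 Lcp genes.

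The 10 summits with a member as the nearest gene were led by the cluster at cytological band 72E. Cpr72Eb (FBgn0036618, chr3L:16364899-16365707) had an intergenic summit 531 bp upstream of its start, with ranks 1844, 1101 and 1047 in replicates 1, 2 and 3. Its neighbour Cpr72Ea had a summit 1246 bp upstream, with signal 318 and ranks 1570, 2131 and 1658. A weaker summit, of signal 93.9, lay 4575 bp upstream of Cpr72Ea and nearer to ringer, a tubulin-binding protein gene. All 3 genes of this cluster had an optimal summit within 5 kb, the only cluster where every member did.

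Cpr62Ba (FBgn0035279, chr3L:1824129-1831783) had its summit in an intron, 789 bp upstream of a start used by its shorter transcript. The ranks were 2268, 2570 and 1589. The other summits with a member as the nearest gene were at Cpr51A, 3085 bp upstream at rank 2348, Cpr12A, 2269 bp upstream with signal 199, Cpr73D, in an intron 1538 bp downstream with signal 148, Cpr49Ah, 607 bp upstream, Cpr47Ec, 906 bp downstream with signal 104, Cpr100A, 2874 bp upstream with signal 94, and Cpr49Ac, 1336 bp upstream with signal 90.7. The weakest of them spread most between replicates, since the Cpr49Ac summit ranked 9069, 21597 and 9337. The median over all 9316 optimal peaks was a signal of 162, so Cpr73D and the weaker summits listed here were below it.

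**Figure D3:**
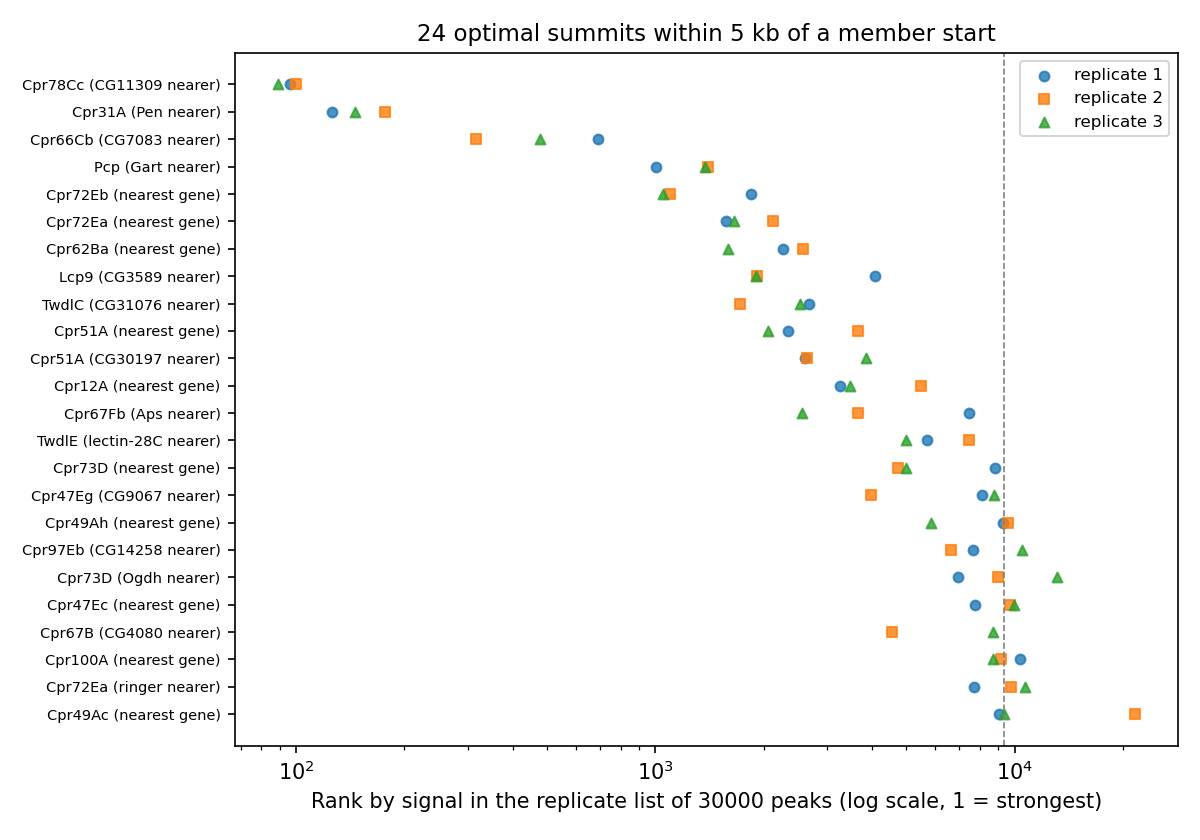
Rank by signal in each replicate list of 30000 peaks, on a log axis, of the 24 optimal summits within 5 kb of a member, ordered by pooled rank from the top. Each is named by its nearest member and any nearer gene; the dashed line marks rank 9316, and the Cpr67B summit has no match in replicate 1.

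Summits close to starts were mostly weak. The 26 pooled relaxed summits within 1 kb of a member had a median signal of 39.9, against 51.9 over the whole pooled relaxed list, and 6 of them (23.1%) had a q value under 0.01, against 45.6% of the list. Of the 26, 8 were matched within 100 bp in all 3 replicates, and the share over the whole list was not computed. The 4 of them in the optimal list had a median signal of 208, against 162 over all optimal peaks. Those at Cpr72Eb and Cpr62Ba, with 378 and 293, were above 162, and those at Cpr49Ah and Cpr47Ec, with 122 and 104, below it. The 8 members with a relaxed summit within 1 kb in every replicate were Cpr47Ec, Cpr47Ed, Cpr49Ah, Cpr51A, Cpr62Ba, Cpr72Eb, Cpr73D and Cpr12A, all of them Cpr genes. At Cpr47Ed no pooled summit within 1 kb was matched within 100 bp in all 3 replicates. At Cpr51A the pooled summit 190 bp downstream of the start was matched within 100 bp in all 3 replicates, with ranks 12286, 17746 and 18368 in replicates 1, 2 and 3. A second pooled summit, 27 bp upstream, was matched in replicate 1 alone, at rank 17889. At Cpr12A they lay 200, 257 and 182 bp upstream, with ranks 9387, 23703 and 17103.

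The Edg genes, known as ecdysone-dependent genes, had no optimal summit within 5 kb. Edg84A (FBgn0000552) had a relaxed summit 709 bp upstream in replicate 1, rank 17062, and 591 bp upstream in replicate 3, rank 17052. In replicate 2 its nearest summit lay 4277 bp downstream. Edg78E had its nearest optimal summit 6773 bp upstream and Edg91, whose protein lacks the signature, 6996 bp downstream. Edg84A thus had a relaxed summit within 1 kb in 2 of 3 replicates, and Edg78E and Edg91 had none within 1 kb in any.

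Acp65Aa, an adult cuticle protein gene, had its nearest optimal summit 32372 bp away. Its nearest relaxed summits lay 430, 529 and 1164 bp upstream in replicates 1, 2 and 3, with ranks 27872, 29402 and 21846 in lists of 30000. No pooled relaxed summit nearest to Acp65Aa was matched within 100 bp in all 3 replicates. The same peaks were the nearest to Lcp65Aa, since both genes lie in the 65A cluster.

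The Lcp genes, many of them expressed in larval epidermis, had no pooled relaxed summit within 1 kb. The nearest was 1856 bp from Lcp65Aa and the farthest 12698 bp from Lcp1. In the single replicates, 1 relaxed summit of replicate 1, at rank 19697, lay 360 bp from Lcp2 and 165 bp from Lcp3. Replicate 3 had one 88 bp from Lcp65Ad, at rank 22090. Lcp9 was the only Lcp gene within 5 kb of an optimal summit. The Twdl genes lay farthest from pooled relaxed summits, with a median of 11439 bp, against 2942 bp for Cpr genes. TwdlT had the nearest, 432 bp upstream at rank 18167, and Twdlbeta the farthest, 23230 bp away. Of the Cpr genes, Cpr78E had the nearest pooled relaxed summit, 11 bp downstream at rank 23559, and Cpr64Aa the farthest, 16443 bp away. The optimal summits in reach of TwdlC and TwdlE lay nearer to CG31076 and lectin-28C.

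Many members sit in tandem arrays. Chaining members with gaps of up to 20 kb gave 14 clusters of at least 3 genes, which hold 80 members, and left 35 outside. An optimal summit lay within 5 kb of 12 of 80 clustered members (15%) and 13 of 35 others (37.1%). Over all protein-coding genes the share was 55%. All 4 members with an optimal summit within 1 kb were clustered. The clusters hold most Lcp and Twdl genes, with 10 of 15 Lcp genes at 65A and 12 of 25 Twdl genes in a single array. Among Cpr genes the shares inside and outside clusters were 15.8% and 13.3% with a signature match, and 85.7% and 70% without one. The part that subfamily plays was not tested. The clusters span 223 kb in total and contain 5 optimal summits, or 22.5 per Mb, against 69.6 per Mb over the genome. The replicate lists had 117, 80.8 and 112 summits per Mb inside clusters, against 224 per Mb over the genome in each.

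The 65A cluster, the largest, holds 10 Lcp genes, 7 Cpr genes and Acp65Aa over 31.2 kb. None of its 18 genes had an optimal summit within 5 kb, while 11 had a pooled relaxed one. Repeated words exceeded 10% at Lcp65Aa, Lcp65Ab1, Lcp65Ab2, Cpr65Ax1, Cpr65Ax2, Lcp65Ag1, Lcp65Ag2 and Lcp65Ag3, so a missing summit is less certain there. The array of 12 Tweedle genes from TwdlM to TwdlD, over 21.9 kb, had no summit within 5 kb of any start in any of the lists, including each replicate. It also had repeated words above 10% at 5 of its genes, with 22.5% at TwdlL the highest, so most of its sequence near starts was unique. The clusters with an optimal summit within 5 kb were those at 47E with 4 of 7 genes, 49A with 2 of 8, 62B, 67F, and 78C with 1 gene each, and 72E with 3 of 3. The other 8 clusters had none. By chromosome arm, an optimal summit lay within 5 kb of 9 of 47 members on 3L, 8 of 27 on 2R, 4 of 26 on 3R, 1 of 8 on X and 3 of 7 on 2L. The 47 on 3L include the 18 genes of the 65A cluster. Shares over all protein-coding genes of each arm were not computed, so these counts do not compare the arms.

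**Figure D4:**
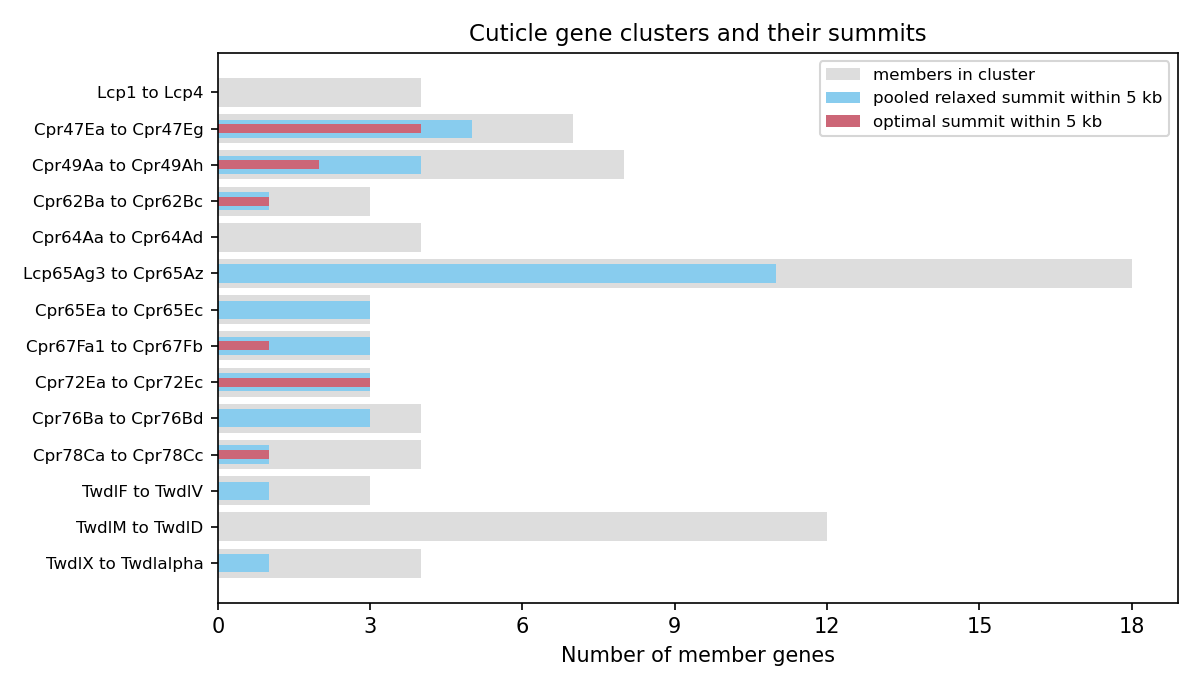
Members in each of the 14 clusters (grey), those with a pooled relaxed summit within 5 kb (light blue) and those with an optimal summit within 5 kb (red), as numbers of genes. The 65A cluster from Lcp65Ag3 to Cpr65Az has 11 and 0 of 18, and the array from TwdlM to TwdlD has none of either.

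Most cuticle gene promoters had a TATA box. Of 115 members, 78 (67.8%, 58.8 to 75.7) had TATAAA in sense within the 50 bases before the canonical start, against 10.7% of 13944 protein-coding promoters. On either strand of the 300-base promoter the shares were 77.4% and 45.3%. The sense match occurred in 64.3% of Cpr, 80% of Lcp and 64% of Twdl promoters. Its relation to the summit counts of the subfamilies was not tested. AACAAT on either strand was in 30.4% of member promoters and 31.9% of all. AACAAAG, another Sox-type core, was in 3.48% and 8.2%. TATCGATA, the DREF-type element, was in 0.87% of member promoters and 8.94% of all, and GAGAGAG, the GAGA element, in 0.87% and 6.2%. Members were GC-richer, with 44.4% against 39.3%.

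Around the summits, AACAAT was in 3 and AACAAAG in 2 of the 24 summit windows near members, or 12.5% and 8.33%, against 12.2% and 6.39% of all optimal windows. The 10 windows with a member as the nearest gene had a GC content of 28.8%, against 36.6% over all optimal windows, and the 14 with a nearer neighbour gene 40.1%. These matches are descriptions of letters in a window and do not show sites.

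Genes that make or harden cuticle without being its structural proteins were counted in the same way. Of 20 genes for chitin synthesis and assembly, 6 (30%) had an optimal summit within 1 kb and 16 (80%) a pooled relaxed one, against 33.5% and 50.9% of all protein-coding genes. The optimal ones were at the chitinase genes Cht7, with signal 369, and Cht5, with 237, at nst, with 253, and mmy, with 136, which make the sugar donor for chitin, at Gfat2, with 97.4, and at the chitin deacetylase gene Cda4, with 96.1. Of 11 sclerotization and pigmentation genes (AANAT1, also on that list, was not found under this symbol and was not counted), 2 had an optimal summit within 1 kb, namely the prophenoloxidase gene PPO3, with 236, and Pu, with 99.7, and 7 had a pooled relaxed one. Of 21 other structural cuticle genes, 1 had an optimal summit within 1 kb, obst-B at rank 8254, and 4 a pooled relaxed one. The last list thus stood nearer to the members, with 3.48% and 15.7%, than to the chitin genes.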

How the data were processed

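Per the labels, ChIP-seq was done on 3 biological replicates of Sox14-GFP white prepupae. Peaks are on dm6, per the deposited descriptions. The authors deposited for each peak a signal score that is comparable within a list but not between lists, together with a −log10 q value, here turned back to a q value. The dm3 files were not used. Which aligner, peak caller and reproducibility threshold the authors chose is not given in the sources used here. Summits were placed at the peak start plus the offset. Genes and starts came from Ensembl release 115, and sequence from the RefSeq Release 6 genome at canonical starts. Python 3.11.15, pandas 2.3.3, numpy 2.4.6 and scipy 1.17.1 were used. The window counts were tested on simulated summits.

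There is 1 group, so counts are given with Wilson intervals and no test. The members and lists were chosen with earlier results of these data known. Named were members with an optimal summit within 5 kb or a relaxed one within 1 kb in all 3 replicates. Also named were the Edg genes, Pcp and Acp65Aa, and the nearest and farthest member per subfamily. Related genes with an optimal summit within 1 kb were named too, and some of the nearer neighbours. Cpr30F, Cpr78Cb, Cpr57A, Cpr92F and the genes of repeated sequence were named after their values were seen.

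Several choices were made after seeing the data: the protein signature, the 50-base TATAAA window, the single-start and repeated-word subsets, the split of Cpr genes, and which sequences are printed. The first protein pattern, set down earlier with a spacing error, matched 7 of 115 proteins and was replaced by the published insect cuticle signature, written from memory, which matched 70. The alternatives tried were the window, the start, the peak base, the nearest gene, the list and leaving out a replicate.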

Additional observations from a re-analysis of the deposited data

How the results depend on the processing

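The number of members within 1 kb of an optimal summit was 4. It was 0 with a 500 bp window, 10 with 2 kb and 2 with the stronger 50% of the list by signal. Within 5 kb it was 25, and became 47 at 10 kb, 10 when a summit counted only for its nearest protein-coding gene, and 13 with the stronger 50%. In the pooled relaxed list the 18 members at 1 kb became 9 at 500 bp, 32 at 2 kb and 6 with a q value under 0.01, and the 58 at 5 kb became 90 at 10 kb, 29 with the nearest gene only and 34 with the q value limit. A summit was next required in each of the 3 replicates, not always the same one. The 8 members at 1 kb then became 2 at 500 bp, 22 at 2 kb, 13 with any base of the peak and 4 with the q value limit. The 52 at 5 kb became 87, 20 and 29 at 10 kb, with the nearest gene and with the q value limit. Each of these alternatives admits more or fewer summits by construction.

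The share of members minus that of all protein-coding genes stayed negative under every alternative run. At 1 kb it was -30.1 percentage points, -22.2 with the nearest gene only and -18.9 with the stronger 50%, and at 5 kb -33.2 and -21.7 with the nearest gene. At 10 kb and with the q value limit, the pooled relaxed count at 5 kb moved to 14 and 1 for Lcp, 11 and 3 for Twdl, and 3 and 0 for Edg. Leaving out each replicate gave 4 members at 1 kb and 24 to 25 at 5 kb for the optimal list. The differences were -28.1 to -27 and -31.9 to -30.8 points. The authors' optimal list was not called again, so these values were largely fixed in advance. Members with a summit in each remaining replicate were 11 to 12 at 1 kb and 53 to 57 at 5 kb, counts that cannot fall by construction. The split of Cpr genes by the protein signature was not checked with another sound pattern, since the first one was wrongly spaced. Under that first pattern the order of the median distances was reversed, at 8555 bp without a match and 6890 bp with one. Read depth is unknown, so a missing summit is not evidence of no binding.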

Other observations

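TATAAA and summits were also compared over all protein-coding genes. Of the 1493 genes with TATAAA in sense within 50 bases before the canonical start, 205 (13.7%, Wilson interval 12.1 to 15.6) had an optimal summit within 1 kb, against 4471 of 12451 genes without it (35.9%, 35.1 to 36.8). Within 5 kb the shares were 35.9% and 57.2%. Leaving out the cuticle genes, 204 of 1415 genes with TATAAA (14.4%) had one within 1 kb. Among the members, 1 of 78 with TATAAA and 3 of 37 without it had an optimal summit within 1 kb, and 19 (24.4%) and 6 (16.2%) had one within 5 kb. The comparison was made after the data were seen and has no test.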
